A study of Mus musculus with 8 samples.

Results

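The replication licensing genes were 10 genes chosen by symbol out of 31053 in the deposited matrices. They were the 6 subunit genes of the MCM2-7 helicase (Mcm2, Mcm3, Mcm4, Mcm5, Mcm6 and Mcm7), the loader genes Cdc6 and Cdt1, the inhibitor gene Gmnn (geminin) and Mcm10, which acts when the loaded helicase is switched on. The rule used only their symbols, and all 10 genes passed the filter on low counts in each comparison below. The libraries were droplet single-cell RNA-seq of SN4741, a mouse line labelled as neural precursor cells and as WT, made immortal with a viral T antigen that loses function at the non-permissive temperature. There were 2 conditions, with 4 libraries at 37 °C in 10% fetal bovine serum and 4 libraries at 39 °C in 0.5% serum, harvested 48 hours after the change of medium and temperature. Temperature and serum changed together and cannot be told apart, so "39 °C" below stands for both. The T antigen was shared by both groups, and its transcript was not analysed here.

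Before a cell copies its DNA, the origin recognition complex and CDC6 sit at each replication origin, and CDT1 brings in the ring-shaped MCM2-7 complex, which is loaded in pairs around the double helix. This licensing happens in G1. Once S phase starts, geminin binds CDT1 and CDT1 is destroyed, so that no origin is licensed again, while CDC45 and the GINS complex join MCM2-7 to form the working helicase and MCM10 helps to open it. Many of these genes are classic targets of the E2F transcription factors, whose sites lie close to the start of transcription, and cells that stop dividing are known to lower their MCM, CDC6 and geminin levels.

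The promoters are shown first, because the members share sequence features there that were not used to choose them. RefSeq promoter windows (GRCm38.p6, 250 bases before to 50 bases after the start of transcription) were available for 8 of the 10 genes, with 2 windows for Mcm7; Mcm4 and Gmnn had no entry in the table. An E2F motif, spelled TTTCCCGC, TTTCGCGC, TTTGCCGC or TTTGGCGC on either strand, was present in the windows of 6 of these 8 genes (Mcm3, Mcm5, Mcm6, Mcm7, Cdc6 and Cdt1), against 2.26% of 32851 windows of the same length. CCAAT, the CCAAT box, was present in 6 of the 8 (Mcm2, Mcm3, Mcm5, Mcm6, Mcm7 and Mcm10), against 37.4% of all windows. TTTGAA or TTCGAA, letters of the cell cycle homology region, were present in Mcm2 and Mcm7, against 19.2% of all windows. The 180 bases just before the start are printed below, 5′ to 3′ on the strand of the gene, for Mcm5 (chr8:75109329-75109508, plus strand), Mcm6 (chr1:128359706-128359885, minus strand) and Mcm2 (chr6:88898781-88898960, minus strand). Mcm5 and Mcm6 are shown for their paired and neighbouring E2F letters, Mcm2 as a subunit gene whose window, like that of Mcm10, had none of the 4 spellings. Capitals mark the E2F motifs, and they run on where a match on one strand overlaps a match on the other.

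Mcm5: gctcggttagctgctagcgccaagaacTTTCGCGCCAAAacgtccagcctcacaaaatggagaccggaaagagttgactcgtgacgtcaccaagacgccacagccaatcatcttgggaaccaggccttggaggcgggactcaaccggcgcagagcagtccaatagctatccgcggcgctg

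Mcm6: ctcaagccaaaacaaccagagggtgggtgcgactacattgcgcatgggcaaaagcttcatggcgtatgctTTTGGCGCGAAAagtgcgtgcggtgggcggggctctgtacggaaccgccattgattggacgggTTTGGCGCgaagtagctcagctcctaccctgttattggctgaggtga

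Mcm2: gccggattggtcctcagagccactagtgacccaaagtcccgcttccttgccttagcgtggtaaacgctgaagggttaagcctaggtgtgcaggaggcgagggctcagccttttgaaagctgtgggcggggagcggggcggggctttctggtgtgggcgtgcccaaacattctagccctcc

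With position 0 at the first transcribed base, the Mcm5 matches lay at -153 to -146 on the gene's strand and at -149 to -142 on the opposite strand. In Mcm6, 2 overlapping matches lay between -110 and -99 and a separate one at -47 to -40. Cdc6 had TTTCCCGC at -138 to -131 on the opposite strand, and Mcm7 had TTTCCCGC at -165 to -158 on the opposite strand and TTTCGCGC at 16 to 23. Both Mcm7 matches lay in the same window, and the other Mcm7 window had no E2F match. The matches of Mcm3 and Cdt1 lay after the RefSeq start (TTTCCCGC at 19 to 26 and TTTGGCGC at 38 to 45 in Mcm3, TTTGGCGC at 32 to 39 in Cdt1). The RefSeq starts of Cdc6 and Mcm7 lie downstream of the GENCODE gene starts given below, so the matches before them fall inside the annotated genes. A match is a run of letters and not a measured site, and a window without one lacks only these letters.

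In the annotation of the same build (GRCm38, GENCODE M21), Mcm2 lies at chr6:88883474-88898780, Mcm3 at chr1:20802968-20820312, Mcm4 at chr16:15623897-15637400, Mcm5 at chr8:75109569-75128439 and Mcm6 at chr1:128331590-128359664. Mcm7 lies at chr5:138164583-138172422, Mcm10 at chr2:4989714-5012791, Cdc6 at chr11:98907801-98923940, Cdt1 at chr8:122568015-122573554 and Gmnn at chr13:24751845-24761923. Mcm5, Cdc6 and Cdt1 are on the plus strand and the others on the minus strand. Mcm4 starts 466 bases from Prkdc and Mcm7 starts 420 bases from Ap4m1, each pair pointing in opposite directions. Exons of Mcm7 overlap exons of Cops6 and of Ap4m1 on the other strand, and Mir25, Mir93 and Mir106b lie within the gene. The sources used here do not say how strand was used in counting, so Mcm7 values carry that limit.

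After cells with over 15% mitochondrial counts, under 200 genes or over 6000 genes were left out, 8550 cells of the 37 °C libraries and 9801 of the 39 °C libraries remained. A library held 17166686 to 29633818 UMIs (a UMI, or unique molecular identifier, stands for 1 captured transcript) and a median of 6676 to 16665 UMIs per cell. At most 5 cell barcodes were shared by any pair of libraries, and no pair of libraries of 1 temperature agreed within counting noise. Replicate 1 at 39 °C stood apart in having the fewest cells (985) and the deepest cells (median 16665 UMIs). CPM are UMI counts scaled to one common library total, with TMM factors in the comparisons below but without them for the markers here. Of 10 neural precursor markers, Nes, Sox2 and Vim were above 1 CPM in the pooled cells of each temperature, while Sox3 and Hes5 were at 0 in all libraries. The summed level of these 10 was 5638 to 6013 CPM at 37 °C and 5191 to 5803 CPM at 39 °C. Of 10 mesenchymal markers, 7 were above 1 CPM, with a summed level of 2235 to 2328 CPM at 37 °C and 1345 to 1392 CPM at 39 °C. Of 5 immune markers, Cd68 and Lyz2 were above 1 CPM (summed level 20.6 to 23.6 CPM at 37 °C and 28.4 to 37.6 CPM at 39 °C), and of 5 endothelial markers none was, with Cdh5 and Cldn5 at 0. The part of these markers in the results below was not tested.

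The first comparison asked how the licensing genes differed between temperatures when all cells of a library were summed. All 10 genes were lower at 39 °C (edgeR quasi-likelihood test, adjusted p under 0.05), where 30.5% of the 15810 genes tested were lower and 31.5% were higher. For each of the 10, every 39 °C library lay below every 37 °C library, as it did for 28.0% of all genes. With a log2 fold change over 1.5 in size and an adjusted p under 0.01, 5 genes were called lower (Cdc6, Mcm10, Mcm5, Gmnn and Mcm3), against 3.62% of all genes, and 0 were called higher, against 2.21%. The median log2 fold change was -1.45 over the 10 genes and 0.02 over all genes tested. The fall was uneven: the smallest, in Mcm7, was to 76.3% of the 37 °C level, and the largest, in Cdc6, was to 14.3%. In such sums, fewer cells of a kind and less RNA per cell cannot be told apart.

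**Figure D1:**
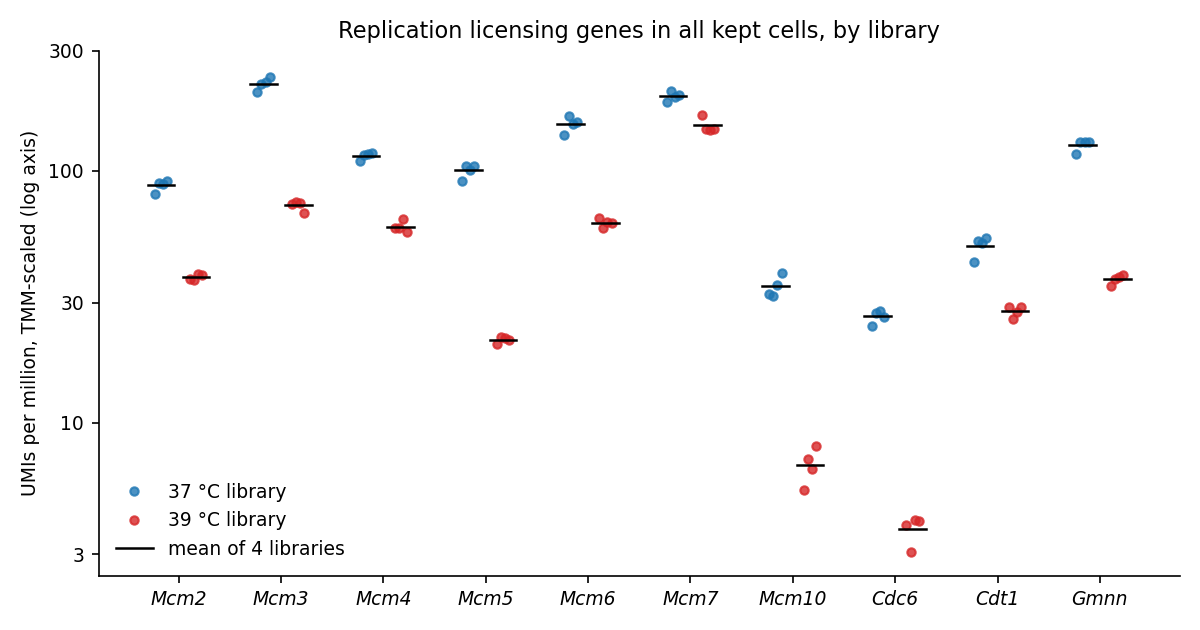
Level of each licensing gene in all kept cells (CPM, TMM-scaled UMI counts, log axis), with 1 point per library and a line at the mean of 4 libraries. All 39 °C points lie below the 37 °C points of the same gene, with the widest gap for Cdc6 (26.4 against 3.79 CPM on average) and the narrowest for Mcm7 (198 against 152 CPM).

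Among the loaders, Cdc6, whose protein is an ATPase that takes part in loading MCM2-7 at the origin, was measured at 24.3, 27.3, 27.8 and 26.4 CPM in replicates 1 to 4 at 37 °C. At 39 °C it was 3.92, 3.07, 4.11 and 4.09 CPM, from 69 to 116 UMIs per library. Every 39 °C library was far below every 37 °C library, and the level was 6.97-fold lower (log2 fold change -2.80 ± 0.08 SE, n = 4 per group, edgeR adjusted p = 7.7e-16). Cdt1, the partner that delivers the ring, behaved differently in size. It stood at 43.5, 52.6, 51.9 and 54.1 CPM at 37 °C and at 28.8, 25.8, 27.5 and 28.9 CPM at 39 °C, so that the groups did not overlap but the level was 1.82-fold lower (log2 fold change -0.86 ± 0.06 SE, edgeR adjusted p = 5.84e-10). Gmnn, which encodes the CDT1 inhibitor, held 117, 130, 130 and 130 CPM at 37 °C and 35.0, 37.4, 37.8 and 38.5 CPM at 39 °C. It was 3.40-fold lower (log2 fold change -1.77 ± 0.05 SE, edgeR adjusted p = 6.52e-16), a larger fall than that of the gene for its target CDT1.

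Mcm10 was among the lowest members at both temperatures. Its libraries held 32.6, 32.0, 35.3 and 39.5 CPM at 37 °C and 5.39, 7.19, 6.55 and 8.10 CPM at 39 °C, with no overlap. The level was 5.05-fold lower (log2 fold change -2.34 ± 0.09 SE, edgeR adjusted p = 4.24e-14).

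The 6 helicase subunit genes, whose proteins stand 1 to 1 in the ring, fell by different amounts. Mcm5 had 91.1, 105, 101 and 105 CPM at 37 °C and 20.5, 21.9, 21.7 and 21.4 CPM at 39 °C, a 4.69-fold lower level (log2 fold change -2.23 ± 0.05 SE, edgeR adjusted p = 7.85e-17). Mcm3, the most abundant member at 37 °C, had 206, 221, 226 and 235 CPM there and 73.9, 75.1, 74.7 and 68.2 CPM at 39 °C, a 3.04-fold lower level (log2 fold change -1.61 ± 0.05 SE). Mcm6 (means of 153 ± 11.0 and 62.2 ± 2.28 CPM, SD, n = 4), Mcm2 (87.7 ± 4.61 and 37.9 ± 0.97 CPM) and Mcm4 (115 ± 3.90 and 59.9 ± 3.04 CPM) lay between, with log2 fold changes of -1.30, -1.21 and -0.94 and an SE of 0.05 each. Mcm7 changed least. It had 188, 208, 197 and 201 CPM at 37 °C and 167, 147, 146 and 146 CPM at 39 °C, and the level was 1.31-fold lower (log2 fold change -0.39 ± 0.05 SE, edgeR adjusted p = 2.55e-06). The highest 39 °C value of Mcm7 belonged to replicate 1, the library with the fewest and deepest cells. With any 1 library left out, the log2 fold change of Mcm7 was -0.45 to -0.37, and over all alternatives it was -0.45 to -0.36. Of the genes that overlap Mcm7 on the other strand, Cops6 was lower (log2 fold change -0.51) and Ap4m1 higher (0.49). By mean level, the order at 37 °C was Mcm3, Mcm7, Mcm6, Gmnn, Mcm4, Mcm5, Mcm2, Cdt1, Mcm10 and Cdc6, and at 39 °C it was Mcm7, Mcm3, Mcm6, Mcm4, Mcm2, Gmnn, Cdt1, Mcm5, Mcm10 and Cdc6. The neighbours Mcm2 and Gmnn at 39 °C (37.9 ± 0.97 and 37.2 ± 1.55 CPM) did not differ beyond their spread. Because 1 UMI stands for 1 molecule tagged at its 3′ end, these levels need no correction for length, but capture may differ between genes.

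The unequal falls changed the makeup of the MCM2-7 transcript pool. As a share of the summed UMIs of the 6 genes, a ratio within a library that needs no scaling, Mcm7 made up 23.1%, 23.0%, 22.3% and 22.2% in the 37 °C libraries and 39.5%, 36.8%, 35.7% and 37.2% in the 39 °C libraries. Mcm5 made up 11.2%, 11.6%, 11.4% and 11.6% at 37 °C and 4.86%, 5.48%, 5.31% and 5.44% at 39 °C. Mcm7 went from 22.6% ± 0.46 to 37.3% ± 1.61 (SD, n = 4) and Mcm5 from 11.5% ± 0.18 to 5.27% ± 0.28, with no overlap for either. Mcm3 went from 25.3% ± 0.63 to 17.99% ± 0.69, Mcm6 from 17.5% ± 0.52 to 15.3% ± 0.36, and Mcm2 from 10.0% ± 0.07 to 9.35% ± 0.42, while Mcm4 went from 13.1% ± 0.29 to 14.8% ± 0.74. These shares rest on 23298 to 25837 UMIs per library at 37 °C and 7450 to 11520 at 39 °C, and they are given without a test.

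**Figure D2:**
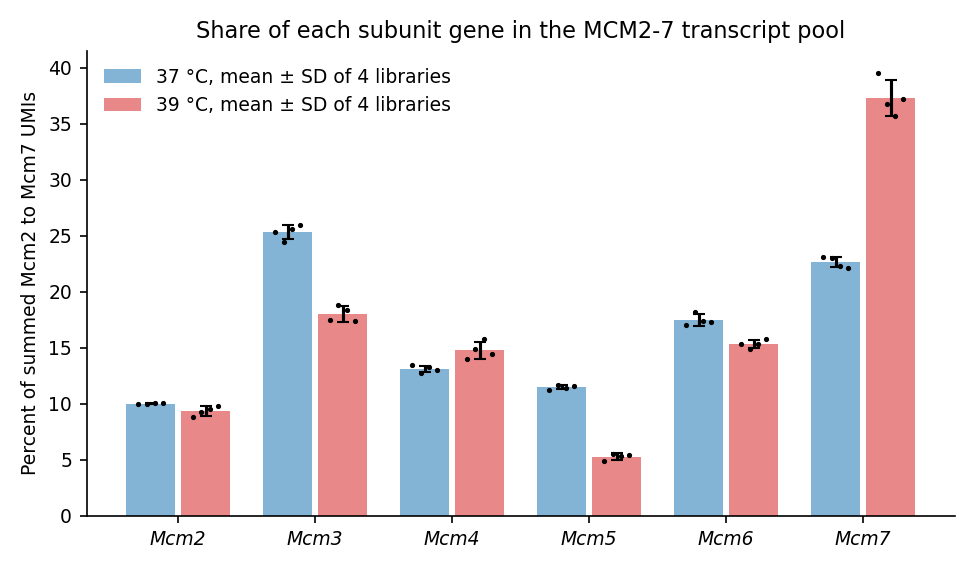
Share of each subunit gene in the summed Mcm2 to Mcm7 UMIs of a library (percent; bars are means, error bars SD over 4 libraries, dots single libraries). At 37 °C Mcm3 (25.3%) and Mcm7 (22.6%) are closest to each other at the top, and at 39 °C Mcm7 alone holds 37.3% and Mcm5 5.27%.

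The cells were then assigned to G1, S or G2M with Seurat's phase scores, computed without the licensing genes and without the other replication genes described here, so that these genes did not set the class of a cell. At 37 °C, 24.3% ± 3.03 of cells (SD, n = 4) were assigned to G1, 41.2% ± 2.34 to S and 34.4% ± 1.27 to G2M. At 39 °C, the shares were 82.6% ± 1.97, 12.99% ± 1.204 and 4.45% ± 0.90, and the G2M class held only 31 to 182 cells per library. The S class was not alike in the 2 conditions: the median S score of its cells was 0.211 to 0.231 at 37 °C and 0.076 to 0.097 at 39 °C, and 36.02% of the S cells at 39 °C had an S score under 0.05, against 12.7% at 37 °C. The G1 class was not alike either: the median S score of its cells was -0.106 to -0.101 at 37 °C and -0.151 to -0.138 at 39 °C. Both phase scores were under -0.1 in 975 of 2079 G1 cells at 37 °C and in 5238 of 8032 at 39 °C. Scores are relative to the cells scored together. Scoring each library by itself put 52.2% of cells in G1, 31.1% in S and 16.7% in G2M at 39 °C, so values under that scoring are given beside the results by class that it changed most.

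At 37 °C, all 10 licensing genes had their highest mean level in S cells, and 9 of them did so in each of the 4 libraries. The exception was Mcm10, with 45.8 ± 4.55 CPM in S and 41.4 ± 3.797 CPM in G2M (SD, n = 4), values that overlapped. As a fold, the difference between G1 and S cells was largest for Cdc6 (18.2-fold), from 3.20 ± 1.52 to 52.9 ± 2.34 CPM, and next for Mcm10 (10.2-fold), from 4.62 ± 1.33 CPM. Mcm5 went from 33.8 ± 4.73 to 160 ± 7.27 CPM and Gmnn from 39.9 ± 4.39 to 168 ± 7.23 CPM. Cdt1 had the smallest fold (2.08), from 37.0 ± 3.53 to 76.9 ± 7.79 CPM. From S to G2M the genes parted. Cdc6 was 4.48-fold and Mcm6 2.87-fold lower in G2M than in S, and Cdt1 2.44-fold lower, at 31.4 ± 0.69 CPM. Gmnn was 136 ± 2.61 CPM in G2M, 1.24-fold below S. Cdt1, Mcm2 and Mcm6 were lowest in G2M cells, and the other 7 members in G1 cells. When each library was scored by itself Mcm4 was also lowest in G2M (74.2 against 85.7 CPM in G1), Mcm10 was highest in S in all 4 libraries, and S over G1 was 8.64-fold for Cdc6 and 5.67-fold for Mcm10. With the full phase lists Mcm2 and Mcm6 were lowest in G1, which left Cdt1, and the fold of Cdc6 was 30.05.

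**Figure D3:**
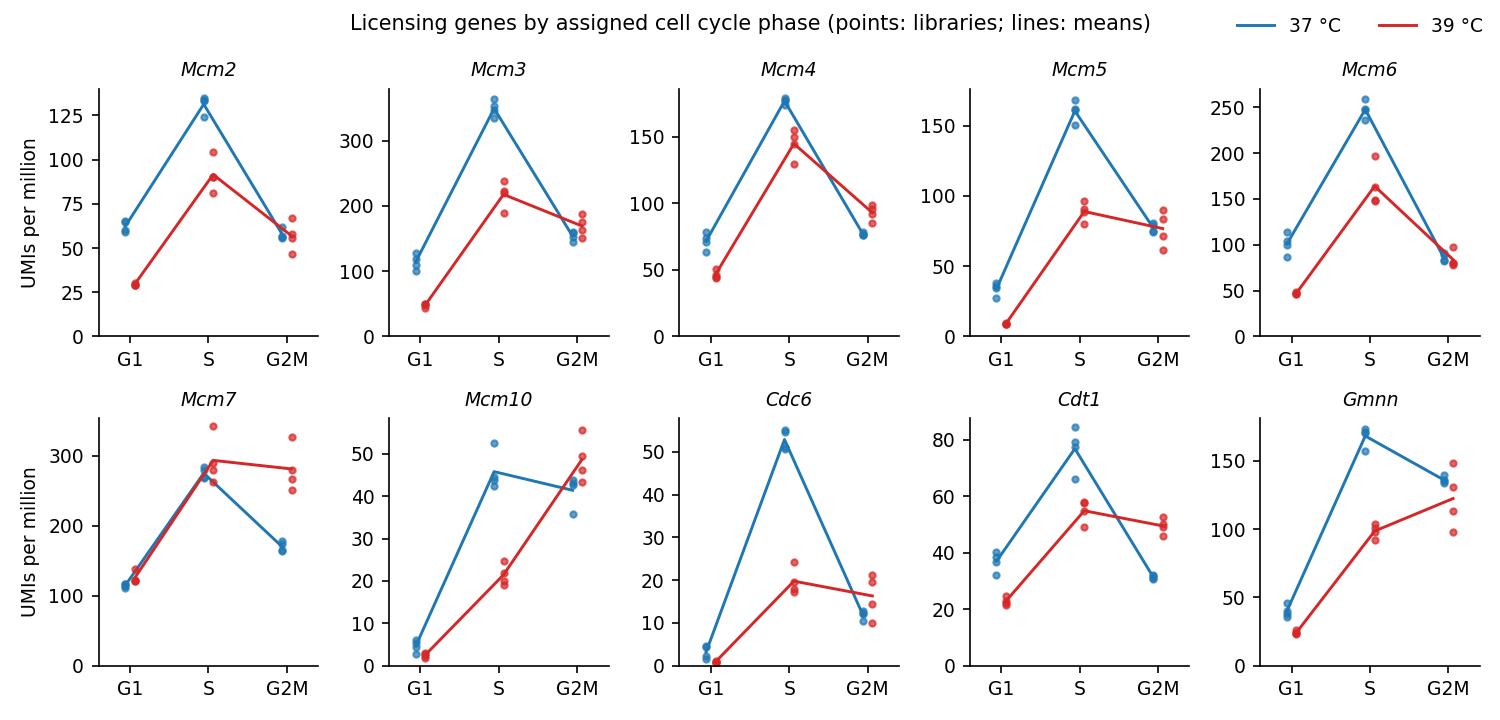
Level of each licensing gene (CPM, on 1 scale over 24 sums of cells) in cells assigned to G1, S and G2M, with 1 point per library and lines through the means of 37 °C (blue) and 39 °C (red). At 37 °C all 10 lines peak in S; at 39 °C those of Mcm10 and Gmnn end highest in G2M.

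At 39 °C, 8 of the 10 genes had their highest mean level in S cells, 6 of them in each of the 4 libraries, Mcm5 in 3 and Cdc6 in 2. Mcm10 was higher in G2M (48.7 ± 5.32 CPM) than in S (21.4 ± 2.52 CPM) in all 4 libraries, and Gmnn was higher in G2M on average (122 ± 22.0 against 98.6 ± 4.96 CPM), but in 1 library it was not. Mcm7 was nearly level between S and G2M (294 ± 34.4 and 281 ± 32.4 CPM). These profiles, here and at 37 °C, are descriptions, because the classes come from other genes of the same cells. Some of those genes, such as Hells, Atad2 and Chaf1b, are among the genes most correlated with the summed subunit level, as given below. A high level in S cells is thus partly tied to how the class was made. The share of all genes highest in S was not computed. With each library scored by itself, 9 genes in place of 8 were highest in S at 39 °C, since Gmnn then was (58.5 CPM in S and 56.1 CPM in G2M), and all 10 still were at 37 °C.

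Within G1 cells, which were the most numerous class at 39 °C, 9 of the 10 genes were lower at 39 °C (edgeR, adjusted p under 0.05), against 22.7% of 14695 genes tested, and 1 was higher, Mcm7, against 25.2%. Mcm5 and Cdc6 were called lower by the stricter rule, which called 1.52% of all genes lower and 1.10% higher. The median log2 fold change was -0.94 over the 10 genes and 0.04 over all. Mcm5 was 26.9, 33.5, 34.8 and 37.4 CPM in the 37 °C libraries and 8.87, 8.95, 8.81 and 9.67 CPM in the 39 °C libraries. The 2 groups were far apart (log2 fold change -1.85 ± 0.09 SE, edgeR adjusted p = 1.96e-13). Cdc6 was close to its floor in G1 cells, with 9 to 33 UMIs per library at 37 °C and 16 to 19 at 39 °C, or 1.497 to 4.502 and 0.73 to 1.15 CPM (log2 fold change -1.85 ± 0.30 SE, edgeR adjusted p = 1.88e-05). Mcm3, Mcm6 and Mcm2 were 2.31-fold, 2.07-fold and 2.05-fold lower, and Gmnn, Cdt1 and Mcm4 1.60-fold, 1.57-fold and 1.49-fold lower, without overlap. Over all 14695 genes tested, 2996 were lower and 3553 higher without overlap. Mcm10 (4.53 ± 1.31 and 2.51 ± 0.49 CPM) passed the test (edgeR adjusted p = 0.00151) although its libraries overlapped. Restricting the class to cells with both phase scores under -0.1 left 8 of the 9 past the threshold and took Mcm10 out (log2 fold change -0.54, edgeR adjusted p = 0.163). It also left Mcm5 as the 1 gene called lower. The falls of Mcm5 (-1.69) and Cdc6 (-1.46) were smaller there than the -1.85 of each in the whole class. Over all genes, 2499 of 14128 were lower there, 2780 higher and 168 called lower. The lower S scores of the G1 cells at 39 °C move with the falls in G1, and their part was not tested.

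Mcm7 in G1 cells stood at 113, 115, 108 and 115 CPM at 37 °C and at 140, 121, 122 and 123 CPM at 39 °C. All 39 °C libraries were above all 37 °C libraries, by a small amount (log2 fold change 0.17 ± 0.06 SE, edgeR adjusted p = 0.0166). That call did not hold without replicate 1 at 39 °C (0.12, edgeR adjusted p = 0.0552), without replicate 3 at 37 °C (0.15, edgeR adjusted p = 0.0587), with mitochondrial counts limited to 10% (0.08, edgeR adjusted p = 0.247) or with cells thinned to 4000 UMIs (0.01, edgeR adjusted p = 0.916). Over all alternatives the log2 fold change of Mcm7 in G1 cells ran from -0.37 to 0.34. With each library scored by itself the direction turned (-0.37, edgeR adjusted p = 6.53e-06), and the falls of the other 9 genes in G1 were larger, for example -4.12 for Cdc6 and -3.25 for Mcm5, so that 6 genes were called lower. Over all genes, that scoring called 319 of 14505 lower, in place of 224 of 14695. Ap4m1, whose exons overlap those of Mcm7, was also higher in G1 cells (log2 fold change 0.39) and Cops6 lower (-0.39). Their part in the Mcm7 counts was not tested.

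Within S cells, 9 of the 10 genes were lower at 39 °C (edgeR, adjusted p under 0.05), against 24.4% of 13832 genes tested, and 0 were higher, against 21.2%. Scaling by library totals only changed that balance over all genes from 3379 lower and 2930 higher to 2660 lower and 3708 higher. By the stricter rule, 0 genes were called with edgeR and 0 with DESeq2, against 1.16% of all genes lower and 1.43% higher. An unadjusted p under 0.05 with edgeR was found for 9 of the 10, and for 7150 of the 13832 genes tested. The median log2 fold change was -0.66 over the 10 genes and -0.01 over all. Cdc6 was 50.8, 54.7, 55.1 and 50.7 CPM at 37 °C and 19.4, 17.3, 24.0 and 17.8 CPM at 39 °C. This was the largest difference among the 10 in S cells, 2.69-fold lower (log2 fold change -1.43 ± 0.10 SE, edgeR adjusted p = 3.75e-13). Without replicate 3 at 39 °C it was -1.55 and was called lower. Mcm10 was 2.13-fold, Mcm5 1.82-fold, Gmnn 1.71-fold, Mcm3 1.62-fold and Mcm6 1.53-fold lower. Mcm2, Cdt1 and Mcm4 were 1.44-fold, 1.41-fold and 1.23-fold lower, and none of these 9 overlapped. Over all 13832 genes tested, 3231 were lower and 2600 higher without overlap. Mcm7, at 269, 284, 269 and 278 CPM at 37 °C and 339, 291, 279 and 259 CPM at 39 °C, overlapped and did not pass the test (log2 fold change 0.08 ± 0.07 SE, edgeR adjusted p = 0.357). The lower S scores of the S cells at 39 °C move with these falls, and their part was not tested. With each library scored by itself, all falls were larger, 4 genes were called lower and Mcm7 was also lower (-0.46, edgeR adjusted p = 5.50e-07). Over all genes, that scoring called 385 of 14083 lower, in place of 160 of 13832.

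Within G2M cells, 0 of the 10 genes were lower at 39 °C with edgeR or with DESeq2, against 16.8% of 13737 genes tested, and none of the genes with an unadjusted p under 0.05 was lower. Mcm7, Cdt1 and Mcm4 were higher, 3 of 10 against 13.7% of all genes. Scaling by library totals only changed the balance over all genes from 2313 lower and 1882 higher to 1763 lower and 2332 higher. The median log2 fold change was 0.17 over the 10 genes and -0.04 over all. Mcm7 was 167, 179, 174 and 166 CPM at 37 °C and 333, 284, 268 and 253 CPM at 39 °C. The groups were well apart, and the level was 1.63-fold higher (log2 fold change 0.71 ± 0.08 SE, edgeR adjusted p = 3.6e-09). Cdt1 was 30.9, 32.4, 31.9 and 31.3 CPM at 37 °C and 46.8, 50.1, 50.4 and 52.9 CPM at 39 °C, from only 26 to 73 UMIs per library there (log2 fold change 0.68 ± 0.11 SE, edgeR adjusted p = 6.13e-06). Mcm4 was 77.5 ± 0.98 and 93.9 ± 6.42 CPM (SD, n = 4; log2 fold change 0.26 ± 0.09 SE, edgeR adjusted p = 0.0221), a call lost without replicate 1 at 39 °C (0.23, edgeR adjusted p = 0.0534), without replicate 3 at 39 °C (0.24, edgeR adjusted p = 0.0765) and with thinned cells (0.00, edgeR adjusted p = 0.991). The other 7 genes had log2 fold changes of -0.18 to 0.40 with SEs of 0.08 to 0.20 and overlapping libraries. Libraries overlapped for 9128 of the 13737 genes tested. With each library scored by itself, 7 of the 10 were lower, from -1.27 for Gmnn to -0.43 for Mcm2, whereas Mcm7 (0.25) and Cdt1 (0.29) were still higher and Mcm4 (-0.06) was not past the threshold. Over all genes, that scoring gave 3813 lower and 3562 higher, in place of 2313 and 1882. Ap4m1 was higher in G2M cells too (26.7 ± 1.73 and 47.9 ± 4.66 CPM, log2 fold change 0.84) and Cops6 lower (-0.41), and their part in the Mcm7 counts was not tested. Gmnn passed the test as lower without replicate 1 at 39 °C (-0.26, edgeR adjusted p = 0.0264) and with thinned cells (-0.34, edgeR adjusted p = 0.0312), and Cdc6 as higher without replicate 2 at 39 °C (0.58, edgeR adjusted p = 0.0452). Mcm10 passed as higher with library totals only, with no cell filter, with no upper limit on genes and with mitochondrial counts limited to 10% (0.31 to 0.33).

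**Figure D4:**
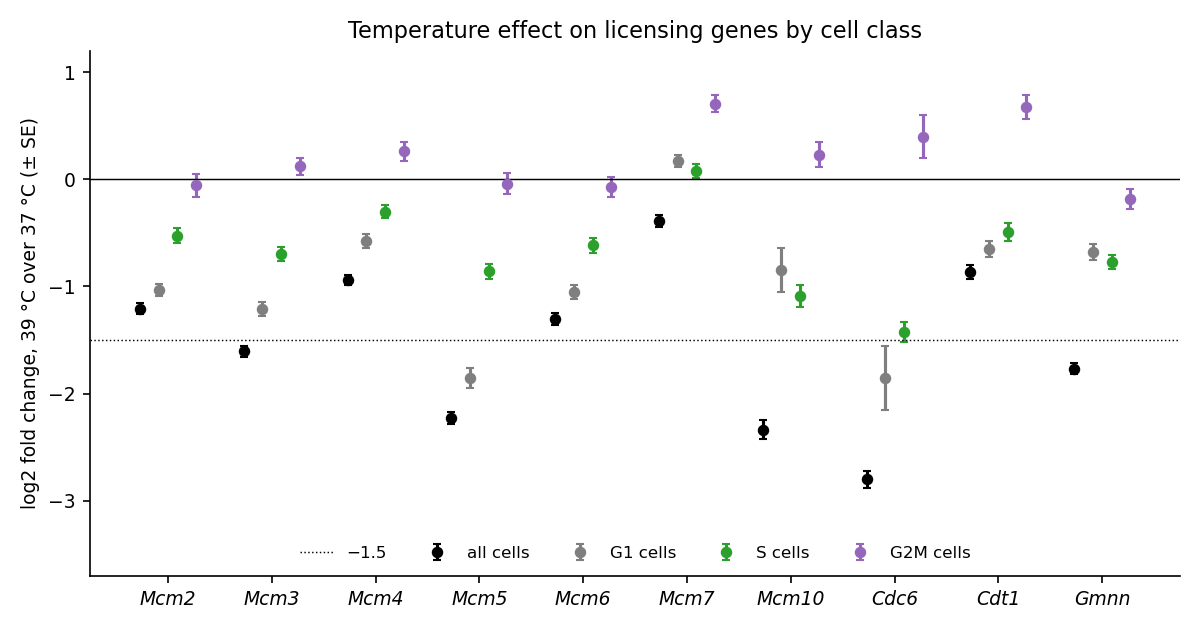
Log2 fold change of each licensing gene, 39 °C over 37 °C (points, error bars are SE of the edgeR fit on 4 libraries per group), in all cells and in cells assigned to G1, S and G2M, with dotted line at -1.5. In all cells the 10 values run from -2.80 (Cdc6) to -0.39 (Mcm7), and in G2M cells they lie between -0.18 and 0.71.

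Whether the temperature difference in S cells differed from that in G1 cells was tested directly, with library as a block. It differed for 5 of the 10 genes, all of them with a smaller fall in S than in G1, against 4.46% of 14316 genes tested that were more positive in S. None of the 10 was more negative in S at an adjusted p under 0.05 with edgeR, the only tool run for this test, against 8.10% of all genes. None with an unadjusted p under 0.05 was more negative either. With RLE size factors the counts over all genes were 842 more positive and 867 more negative in place of 639 and 1160. Mcm5 differed most, by 1.00 ± 0.09 on the log2 scale (edgeR adjusted p = 1.48e-21), from -1.85 in G1 to -0.86 in S. Mcm2 and Mcm3 differed by 0.51 each, Mcm6 by 0.43 and Mcm4 by 0.27 (edgeR adjusted p = 7.26e-04). Hence these were subunit genes of the ring, all but Mcm7. For Mcm7 (-0.09 ± 0.05), Mcm10 (-0.24 ± 0.20), Cdc6 (0.44 ± 0.25), Cdt1 (0.18 ± 0.09) and Gmnn (-0.08 ± 0.08) no difference was detected at this depth. With cells thinned to 4000 UMIs, Mcm2 (0.29, edgeR adjusted p = 0.179) and Mcm4 (0.15, edgeR adjusted p = 0.528) lost the call and Cdc6 gained it (1.30, edgeR adjusted p = 0.0206). With each library scored by itself Cdc6 (1.36), Cdt1 (0.26) and Gmnn (-0.30) passed the test, and with the full phase lists Mcm7 did (-0.15). The S scores of both G1 and S cells differed between the temperatures, and their part in these differences was not tested.

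Across single cells, depth was evened by thinning each cell to 4000 UMIs, which left out 385 shallower cells at 37 °C and 981 at 39 °C. The summed Mcm2 to Mcm7 count per cell averaged 3.31, 3.64, 3.61 and 3.73 UMIs in the 37 °C libraries and 1.84, 1.62, 1.74 and 1.68 in the 39 °C libraries. No UMI of the 6 genes was found in 10.6% ± 0.70 of cells at 37 °C and 29.99% ± 1.77 at 39 °C (SD, n = 4), and 4 or more of the 6 genes were found in 24.3% ± 1.95 and 6.07% ± 0.82. All 6 were found in 1.72% ± 0.31 of cells at 37 °C, or 32 to 39 cells per library, and in 0.217% ± 0.08 at 39 °C, or 2 to 8 cells per library. At 4000 UMIs a gene that is not seen in a cell may still be expressed there.

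**Figure D5:**
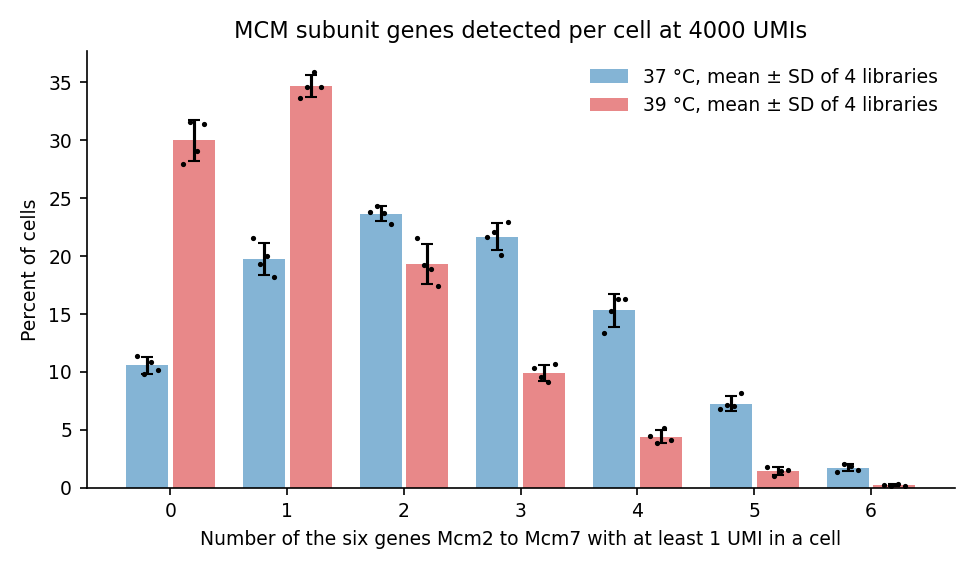
Percent of cells by the number of the 6 genes Mcm2 to Mcm7 with at least 1 UMI, in cells thinned to 4000 UMIs (bars are means, error bars SD over 4 libraries, dots single libraries). Cells with none make up 10.6% at 37 °C and 29.99% at 39 °C, and cells with all 6 make up 1.72% and 0.217%.

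By gene, Mcm7 was detected in 52.7% ± 1.46 of thinned cells at 37 °C and 44.2% ± 2.29 at 39 °C, against 81.8% ± 4.33 and 69.2% ± 11.6 without thinning, where the groups overlapped. Cdc6 was detected in 8.63% ± 1.11 and 1.39% ± 0.19 (unthinned 22.5% ± 4.01 and 3.35% ± 1.19), and Mcm5 in 29.8% ± 1.93 and 7.25% ± 0.69 (unthinned 58.6% ± 5.82 and 15.3% ± 4.21). For all 10 genes the thinned shares of the 39 °C libraries lay below those of the 37 °C libraries. Detection was computed for the members only, so the share of all genes that did so is not known. In the unthinned sums of all cells, 28.0% of all genes were lower at 39 °C without overlap. This culture holds no cell type known to lack these genes, so the share that free RNA gives could not be measured; median depth was 9839 to 15413 UMIs per cell at 37 °C and 6676 to 16665 at 39 °C. Among thinned cells in the G1 class at 39 °C, 39.4% ± 2.07 had a Mcm7 UMI and 3.50% ± 0.59 a Mcm5 UMI, and at 37 °C 36.2% ± 0.78 and 12.03% ± 2.44.

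The loader Cdt1 and its inhibitor Gmnn were also read cell by cell, since their proteins mark different parts of the cycle. At 37 °C, 27.6% ± 1.63 of thinned cells held Gmnn UMIs only, 10.7% ± 1.00 Cdt1 only, 7.39% ± 1.12 both and 54.3% ± 2.84 neither. At 39 °C, 11.2% ± 0.55 held Gmnn only, 8.91% ± 1.13 Cdt1 only, 2.07% ± 0.13 both and 77.9% ± 1.10 neither. The Gmnn-only shares did not overlap, while the Cdt1-only shares (9.63% to 11.6% and 7.93% to 10.5%) overlapped. Cells with both were somewhat more frequent than the product of the 2 shares, 6.36% ± 0.98 at 37 °C and 1.45% ± 0.12 at 39 °C, in every library.

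Across cells of a library, the 15 pairs of MCM2-7 subunit genes had mean Pearson correlations of log-normalized counts between 0.221 and 0.435 at 37 °C (median 0.316) and between 0.172 and 0.365 at 39 °C (median 0.278). The highest was Mcm3 with Mcm6 at both temperatures. The 30 pairs with a loader, Gmnn or Mcm10 had medians of 0.218 and 0.178. Cells of a library share depth and phase, and in sparse counts such values are a description only. Of 9875 genes ranked by their mean correlation with the summed subunit level in the 4 libraries at 37 °C, non-members near the top were Hells, a chromatin remodeller (0.493), Atad2, a bromodomain ATPase (0.465), Lig1, the ligase that joins Okazaki fragments (0.448), Dut, the dUTPase (0.428), and Chaf1b, a subunit of the histone chaperone CAF-1 (0.422). Hells, Atad2 and Chaf1b are also in the phase lists. Gmnn ranked 8, Cdc6 11, Cdt1 51 and Mcm10 91. In all cells Hells, Atad2, Lig1, Dut and Chaf1b had log2 fold changes of -1.56, -1.47, -1.34, -1.69 and -1.35.

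The partners of the licensing genes were taken from lists of 56 other replication genes, all of which were tested. In all cells 46 of these 56 were lower and 1 was higher at an adjusted p under 0.05, with a median log2 fold change of -0.95, and 7 were called lower. Over all genes tested 30.5% were lower, 31.5% higher and 3.62% called lower. Of the origin recognition genes 4 of 7 were lower (Orc1, Orc2, Orc3 and Orc6) and Lrwd1 was higher, with a median of -0.30. Orc6 was lowest, at -1.30, and Orc1 was -0.95. All 5 genes of the CMG helicase partners were lower (median -1.56), led by Gins1, a GINS subunit (15.8 ± 1.35 and 4.47 ± 0.285 CPM, 3.54-fold lower), and Cdc45 (33.1 ± 1.496 and 9.86 ± 0.54 CPM, 3.34-fold lower). All 7 origin firing genes were lower (median -1.01), and Ticrr, which is needed to load CDC45, was 4.503-fold lower. In the licensing control list 4 of 10 were lower (Ddb1, Dtl, Fzr1 and Skp2; median -0.11), a share near the 30.5% of all genes, and Dtl, the ubiquitin ligase adaptor that has CDT1 destroyed, was 3.39-fold lower (51.5 ± 2.23 and 15.1 ± 1.21 CPM). Of the other MCM family genes, Mcm8 and Mcmbp were lower and Mcm9 was not past the threshold (median -0.56). All 24 fork clamp and polymerase genes were lower (median -1.12), led by Clspn, the checkpoint adaptor claspin (6.37-fold), and Fen1, the flap nuclease (2.84-fold).

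Within phases, fewer of these genes passed the test. The counts rest on scores over all libraries together, and scoring each library by itself was not examined for these genes. That scoring made 7 of the 10 members lower in G2M, though Cdt1 stayed higher, and over all genes it gave 3813 lower in place of 2313. In G1 cells 33 of the 56 were lower and 3 higher (median -0.41), against 22.7% and 25.2% of all genes. In S cells 38 were lower and 2 higher (median -0.35), against 24.4% and 21.2%. In G2M cells 12 were lower and 5 higher (median -0.12), which is near the 16.8% and 13.7% of all genes. Dtl, like the gene of its substrate CDT1, was higher in G2M cells at 39 °C, at 65.6 ± 4.53 against 41.4 ± 3.41 CPM (SD, n = 4). The log2 fold change was 0.66 ± 0.11 SE (edgeR adjusted p = 5.18e-06), from only 37 to 93 Dtl UMIs per library at 39 °C. Cdc45 (34.5 ± 1.98 and 41.1 ± 8.98 CPM) and Gins1 (14.9 ± 1.84 and 11.997 ± 5.06 CPM) overlapped there and did not pass the test.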

How the data were processed

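Cells were captured with the Chromium 3′ V3 kit, and per the submitters' processing notes the authors aligned reads to mm10 with Cell Ranger 3.0.1 and deposited UMI counts per gene and cell, not normalized. Replicates are separate libraries, and nothing says that they came from separate cultures, so p-values measure the spread between these samples. Cells outside the limits stated by the study were left out (15% mitochondrial counts, 200 to 6000 genes); doublets were limited only by the upper gene limit. Phases were assigned with Seurat 5.3.0 (24 S genes after leaving out replication genes, 52 G2M genes). Raw counts were summed per library, for all cells or by phase; genes averaging 1 count or more per library were tested with edgeR 4.0.16 in R 4.3.3 (TMM, glmQLFit, glmQLFTest, temperature alone) with Benjamini-Hochberg adjustment over all genes. The SE was obtained as the absolute log2 fold change over the root of F. The phase profile used 1 set of TMM factors over 24 sums. The procedure was tested on simulated data. Alternatives included DESeq2 1.42.0, other scalings, filters and phase classes, and each library left out. Thinning drew UMIs without replacement with a fixed seed. Sequences are from RefSeq tables. The text names all members, the 2 largest called changes of each replication list, and the most alike non-members, of which 1 is not reported here; Cops6, Ap4m1, and genes listed by their direction were added after their values were seen. The members and lists were chosen with earlier results of these data known. Protein sequences were not analysed here.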

Additional observations from a re-analysis of the deposited data

Results flagged for a closer look

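In 112 groups of 4 libraries (levels of the 10 genes in all cells and by phase, shares of the subunits, and shares of thinned cells with a UMI), 9 held a library far from the other 3 by Dixon's criterion for 4 samples, where chance gives about 1 in 20. Replicate 1 at 39 °C was the high one in 4 of them: Mcm7 in all cells (167 CPM, the others 146 to 147), Mcm7 in G1 cells (140 CPM, the others 121 to 123), Mcm6 in G2M cells (99.1 CPM, the others 78.9 to 80.7) and the share of thinned cells with a Mcm7 UMI (47.7%, the others 42.7% to 43.4%). In G1 cells at 39 °C, Mcm2 was 30.6 CPM in replicate 2 (others 29.4 to 29.5) and Mcm5 9.67 CPM in replicate 4 (others 8.81 to 8.95). At 37 °C, Gmnn in all cells was 117 CPM in replicate 1 (others 130), Mcm2 in G2M cells was 62.5 CPM in replicate 4 (others 56.4 to 57.3), and Mcm10 in G2M cells was 36.1 CPM in replicate 2 (others 43.1 to 44.3).

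The temperature difference itself differed between S and G1 cells by the test of that difference (edgeR, library as a block) for Mcm5 (1.00), Mcm2 (0.51), Mcm3 (0.51), Mcm6 (0.43) and Mcm4 (0.27), each on the log2 scale and each a smaller fall in S. With cells thinned to 4000 UMIs, Mcm2 (0.29, edgeR adjusted p = 0.179) and Mcm4 (0.15, edgeR adjusted p = 0.528) lost the call.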

How the results depend on the processing

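In all cells, the 10 genes kept their direction and an adjusted p under 0.05 under every alternative run, 180 of 180 values. Most other changes came from 2 settings, scoring each library by itself and thinning cells, and the cause was not tested. With each library scored by itself, 6 members were called lower in G1 and 4 in S, 0 were higher in G1 and 7 were lower in G2M. Over all genes, 319 were then called lower in G1 in place of 224. The reversed values were -0.37 for Mcm7 in G1, -0.46 for Mcm7 in S, and -0.67, -0.0636, -1.20 and -0.91 for Mcm3, Mcm4, Mcm10 and Cdc6 in G2M. The genes called were 385 lower and 310 higher in S and 403 lower and 405 higher in G2M (at an adjusted p under 0.05, 3813 and 3562), and the S against G1 test had 1098 genes more positive, with 1 member more negative (Gmnn), as with the full phase lists (1, Mcm7). Thinning gave 0 members higher in G1, 1 called in S (Cdc6), 1 lower in G2M (Gmnn), 184 genes more positive and 255 more negative in the S against G1 test, and reversed values of -0.14 for Mcm7 in S, -0.0402 for Mcm3 and 0.0216 for Mcm5 in G2M. Thinned sums hold fewer counts. With library totals only, 1 member was higher in S (Mcm7), and Mcm2, Mcm5 and Mcm6 in G2M were 0.0279, 0.0461 and 0.0148. A mitochondrial limit of 10% gave 0 members higher in G1 and 0.0249 for Mcm5 in G2M. No cell filter gave 1 member called in S (Cdc6). Both phase scores under -0.1, an alternative chosen after seeing the data, gave 1 member called in G1 and 82 genes called higher there. With 1 library left out, members higher in G1 numbered 0 to 1, members called in S 0 to 1, members lower in G2M 0 to 1 and members higher in G2M 2 to 4; Mcm2 in G2M ran from -0.12 to 0.0254 (without replicate 2 at 39 °C) and Mcm5 in G2M from -0.11 to 0.0661 (without replicate 4 at 39 °C). The deviations of same-numbered libraries from their group means had r = -0.089, -0.078, -0.06 and 0.173. Not every library correlated best with its own number, though replicate 4 did. With 4 libraries per group, these values cannot settle whether replicate numbers pair the samples. The replicate block left 10 members lower in all cells, 9 lower and 1 higher in G1, 9 lower in S and 3 higher in G2M, and 545 and 333 genes called in all cells. Depth limits Cdc6 and Mcm10 in G1 and all genes in G2M at 39 °C, where a library held 31 to 182 cells. Temperature and serum cannot be told apart.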
